A study of Schizosaccharomyces pombe with 2 samples.

Results

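Among the places on mitotic fission yeast chromosomes where the condensin subunit Cnd2 was enriched, 295 had their summit, the highest point of the peak, inside a protein-coding gene. These peaks are the subject here. They were taken from the authors' list of 668 peaks by asking whether the summit lay between the annotated start and end of a protein-coding gene on chromosomes I, II and III, which carried 664 of the peaks. No height, fold or width entered that choice. The data are chromatin immunoprecipitation and sequencing (ChIP-seq) of Schizosaccharomyces pombe. The Cnd2 ChIP group is 1 library of chromatin pulled down with an anti-HA antibody from strain YUK421, in which Cnd2 carries an HA tag. The Input group is 1 library named as the control of that ChIP. Both came from Cnd2-HA cells grown in EMM with glutamate and treated with 5 µg/mL thiamine to hold them in mitosis, then fixed with 0.5% formaldehyde (30 min, 25 °C). The labels do not name the gene through which thiamine stops the cells, and an untagged strain was not analysed here. With 1 library in each group there is no replicate check and no test between groups, so every comparison is a description of this peak list. Intervals are exact 95% intervals and cover counting error only.

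Condensin is a ring of a pair of SMC ATPases closed by a kleisin, Cnd2 in fission yeast, with further subunits bound to the kleisin. It loops and compacts DNA so that sister chromosomes can be separated in mitosis. In fission yeast it is known to gather at genes read by RNA polymerase III and at strongly transcribed genes of RNA polymerase II, towards the end of the transcribed unit, where the polymerase passes the poly(A) site and terminates.

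Most summits lay near the end of the reading frame, so the coding stretches nearest to the strongest of them are given first. They are from RefSeq, assembly ASM294v3, written 5′ to 3′ in the direction of the gene, with start and stop codons in capitals. The short gene cmc4 is shown from start to stop codon because the peak covered it whole, the next 5 as their last 60 coding bases because the summit lay within 250 bp of the stop codon, and rds1 as its first 60 because its summit was the strongest in a 5′ untranslated region. SPAC11E3.12, at 5.92-fold and 217 bp past its stop codon, ranked above sec5 but is not shown.
cmc4, chrI:4878241-4878453, plus strand: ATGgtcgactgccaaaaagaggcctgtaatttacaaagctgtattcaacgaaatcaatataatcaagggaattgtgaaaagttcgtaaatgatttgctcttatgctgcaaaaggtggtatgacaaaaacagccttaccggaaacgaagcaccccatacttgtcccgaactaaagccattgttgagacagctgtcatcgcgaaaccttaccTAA
SPAC1705.02, chrI:1569244-1569303, plus strand: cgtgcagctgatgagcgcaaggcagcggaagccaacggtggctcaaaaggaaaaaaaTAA
klp5, chrII:1709214-1709273, minus strand: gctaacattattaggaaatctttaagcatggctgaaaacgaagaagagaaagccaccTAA
alp16, chrIII:432395-432454, minus strand: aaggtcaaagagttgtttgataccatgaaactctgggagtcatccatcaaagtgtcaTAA
rpc82, chrI:3288397-3288456, plus strand: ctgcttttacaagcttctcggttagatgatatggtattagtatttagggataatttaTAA
sec5, chrIII:1413637-1413696, minus strand: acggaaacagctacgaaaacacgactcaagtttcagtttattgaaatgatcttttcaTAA
rds1, chrI:1668071-1668130, plus strand: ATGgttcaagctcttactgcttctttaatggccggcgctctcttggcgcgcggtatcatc

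Summits inside genes made up 44.4% of the nuclear peaks (295 of 664, 40.6 to 48.3), while protein-coding genes cover 76.7% of the chromosome bases. They were 120 of 254 peaks on chromosome I (47.2%), 109 of 229 on chromosome II (47.6%) and 66 of 181 on chromosome III (36.5%, 29.5 to 43.9). Genes held a smaller share of summits than of bases on each chromosome, with genes covering 78.9% of I, 76.1% of II and 72.7% of III.

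The 295 summits fell in 314 genes, which is 6.14% of the 5113 protein-coding genes, and gave 334 pairs of a gene and a summit. A summit could fall in 2 genes where annotated genes overlap, and 39 did (13.2%, 9.57 to 17.6), against 7.58% of gene bases that lie in more than 1 gene. In 19 of these the genes were convergent and overlapped at their 3′ ends, in 19 a gene lay within another on the opposite strand, and in 1 the genes were divergent. With the genes split by length into 3 groups of nearly equal number, a summit was held by 8.86% of the longest (over 2228 bp), 6.40% of the middle group and 3.16% of the shortest (up to 1381 bp). Set against their length, the groups were close to each other: the longest genes held 50.3% of the pairs (44.8 to 55.8) and have 55.2% of gene bases, the middle group 33.2% (28.2 to 38.6) and 29.2%, and the shortest 16.5% (12.7 to 20.9) and 15.5%.

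Within genes the summits were gathered at the 3′ end. With each gene cut into 5 equal segments from the 5′ end, the first held 1.80% of the 334 pairs, the second 7.49%, the third 12%, the fourth 23.7% and the last 55.1% (184 pairs, 49.6 to 60.5), where each segment has close to 20.0% of the bases. Of 10 equal segments, the last held 30.8% (25.9 to 36.1) and the one before it 24.3% (19.8 to 29.2). The median summit stood at 0.823 of the way along its gene (quartiles 0.639 and 0.916), 319 bp before the annotated 3′ end and 1665.5 bp from the 5′ end. A summit was within 500 bp of the 3′ end of the gene that held it in 62.0% of pairs (207, 56.5 to 67.2), against 24.5% of gene bases, and within 500 bp of its 5′ end in 5.09% (2.99 to 8.02) against the same 24.5%. In the 201 pairs with genes of at least 2000 bp, where the ends are farther apart, the share at the 3′ end was 45.8% (38.7 to 52.9) against 16.1% of bases, and at the 5′ end 0.995% (0.121 to 3.55).

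The summits also lay close to the stop codon. Measured from the last base of the stop codon, with positions before it negative, the median summit lay at -32.5 bp, with quartiles at -150.25 and 207.25 bp. A summit was within 250 bp of the stop codon, on either side, in 60.8% of pairs (203 of 334, 55.3 to 66.0), against 21.5% of gene bases. The 250 bases up to the stop codon held 36.8% of pairs and 12.3% of gene bases, and the 250 bases from it held 24.0% and 9.13%. Farther downstream the share of pairs was also above that of bases. It was 10.8% against 4.002% from 250 to 499 bp past the stop codon, and 5.99% against 1.95% from 500 to 749 bp. The excess over bases was thus not confined to the 250 bp on either side of the stop codon. Within 250 bp of the annotated 3′ end lay 38.9% of pairs (33.7 to 44.4) and 12.4% of gene bases, so the 250 bases up to the stop codon and the last 250 of the gene held similar shares. Between -500 and -251 bp from the stop codon lay 5.69% of pairs, against 11.8% of bases. Beyond 500 bp before the stop codon lay 41 pairs (12.3%, 8.95 to 16.3), where genes have 56.3% of their bases. The distance from the stop codon was chosen as a measure after the position along the gene had been seen.

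**Figure D1:**
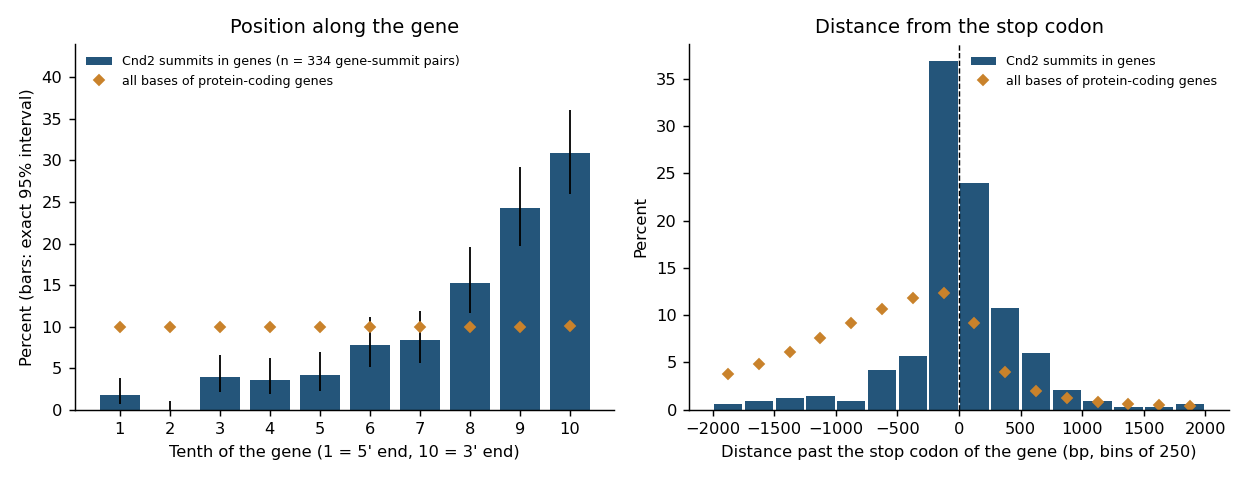
Left, percent of the 334 pairs of gene and Cnd2 summit (bars, with exact 95% intervals) in each of 10 equal segments of the gene from the 5′ to the 3′ end, and percent of all protein-coding gene bases in it (diamonds). Right, the same percentages in 250 bp steps from the last base of the stop codon, where the step ending at the stop codon is the tallest, at 36.8% of pairs against 12.3% of bases.

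By annotated part of the gene, the 3′ untranslated region held 44.9% of pairs (150, 39.5 to 50.4) against 19.5% of gene bases, and coding exons held 52.7% (176, 47.2 to 58.2) against 69.1%. Introns held 2 pairs (0.599%) against 4.05% of bases, and 5′ untranslated regions held 6 (1.80%, 0.662 to 3.87) against 7.41%. The summits in 3′ untranslated regions had a median fold enrichment of 1.51 (interval 1.45 to 1.62) and those in coding exons 1.35 (1.31 to 1.42), where fold is ChIP pileup over the local background at the summit, as the authors' peak caller gave it. Median pileups were alike, at 638 and 625.5, and the difference in fold was not tested.

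The gene on the other side of the 3′ end was usually read towards the summit. Of the 207 pairs within 500 bp of the holding gene's 3′ end, 80.2% (166, 74.1 to 85.4) had a convergent neighbour downstream, against 52.6% of the gene bases within that distance of a 3′ end and 52.5% of all genes. Counted per summit, 48.8% (144 of 295, 43.0 to 54.7) were within 500 bp of the 3′ end of some other protein-coding gene, against 16.0% of gene bases. Both the holding gene's 3′ end and another one were in reach of 118 summits (40.0%, 34.4 to 45.8; 8.02% of bases), the holding gene's alone of 83 (28.1%; 17.4% of bases) and another gene's alone of 26 (8.81%; 8.03% of bases). No 3′ end at all was within 500 bp of 68 summits (23.1%, 18.4 to 28.3), against 66.6% of gene bases, and 3 summits (1.02%) had only a 5′ end in reach, against 18.0%. The 166 pairs with a convergent neighbour had a median of 1.52-fold and a width of 629 bp, and the 41 with a tandem one 1.33-fold and 445 bp, a difference that was not tested. Their median pileups were alike, at 624.5 and 632.

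At the 26 summits where another gene's 3′ end was the only one in reach, the genes ending there had varied functions. The strongest after rds1 was 5.92-fold, in SPAC11E3.12, an uncharacterized gene, 91 bp from the 3′ end of gas5, a gene of a cell wall glucanosyltransferase. Others lay next to psy1 (115 bp, in gbs1, 3.14-fold), a plasma membrane syntaxin gene, and sap1 (144 bp, in SPCC1672.01, 2.94-fold), a DNA-binding protein gene. Ribosomal protein genes stood at 7 of the 26 (26.9%, 11.6 to 47.8), and are 2.76% of all protein-coding genes (141 of 5113), a difference seen after the values and not tested. These were rpl6 (118 bp from a summit in str2, 2.08-fold), rps2602 (217 bp, in SPAC1805.10, 2.1-fold), rpl1802 (183 bp, in SPAPB17E12.14C, 2.05-fold), rps2802 (14 bp, in trs130, 1.63-fold), rpl3801 (167 bp, in SPBC577.03C, 1.52-fold), rps23 (341 bp, in ice2, 1.42-fold) and rpp203 (348 bp, in SPAC1071.09C, 1.42-fold).

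**Figure D2:**
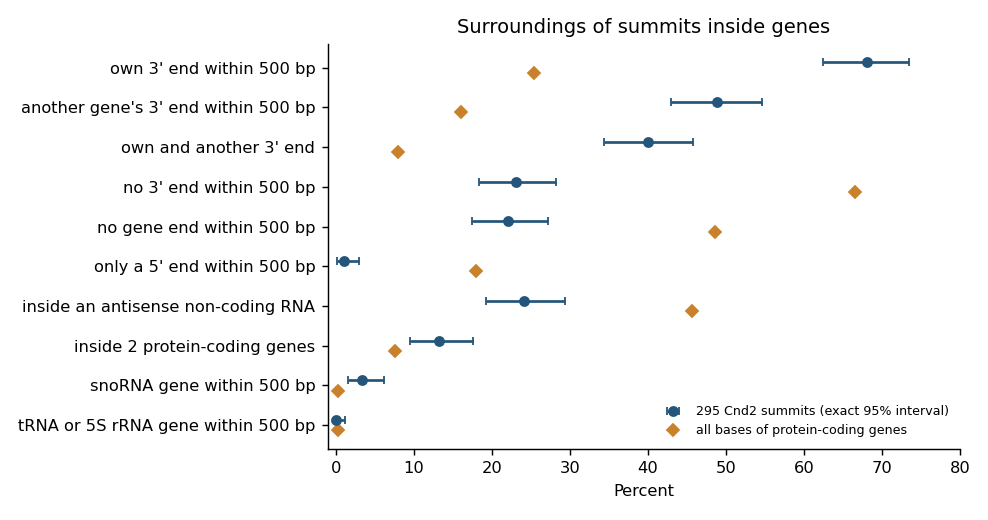
Percent of the 295 Cnd2 summits inside genes that met each condition (circles, with exact 95% intervals) and percent of all protein-coding gene bases that meet it (diamonds). A 3′ end within 500 bp is more frequent at summits than among bases, as at 68.1% against 25.4% for the holding gene, and an antisense non-coding RNA less frequent, at 24.1% against 45.6%.

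Summits inside genes lay within annotated antisense transcripts at a lower share than gene bases do. The annotation has 7171 non-coding RNA genes on the 3 chromosomes, many of them on the strand opposite a protein-coding gene. A summit lay inside an RNA antisense to its gene in 71 of 295 cases (24.1%, 19.3 to 29.4), against 45.6% of gene bases, and inside a non-coding RNA on the same strand in 3 (1.02%), against 0.363%. Of the 227 summits with a 3′ end within 500 bp, 23.8% (18.4 to 29.9) were inside an antisense RNA, against 37.5% of gene bases that near a 3′ end. Of the 68 others it was 25.0% (15.3 to 37.0), against 49.7%, so the share was below that of the bases in both places. The other 369 nuclear summits were inside any non-coding RNA in 37.4% of cases (32.4 to 42.6), and 54.0% of the bases outside protein-coding genes are. Members inside an antisense RNA had a median of 1.41-fold (1.32 to 1.54) and the rest 1.44-fold (1.38 to 1.5), with intervals that overlap. Under the looser measure of any overlap between the peak and an antisense RNA, 51.2% (45.3 to 57.0) met it, a share with no matching share of bases.

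A tRNA or 5S rRNA gene, read by RNA polymerase III, was within 500 bp of 0 of the 295, which allows a share of up to 1.24%, where 0.254% of gene bases are that near one. Few gene bases lie there, so a count of 0 cannot be told apart from the share of bases. Among the other 369 nuclear peaks, 138 were (37.4%, 32.4 to 42.6), against 5.64% of the bases outside protein-coding genes. Small nucleolar RNA (snoRNA) genes, which guide the modification of ribosomal RNA and are read by RNA polymerase II, were within 500 bp of 10 (3.39%, 1.64 to 6.15), against 0.329% of gene bases. The strongest of these was in taf9, a TFIID and SAGA subunit gene, at 3.79-fold and 304 bp from sno52, which lies inside taf9 on the opposite strand. Next came psf3 (GINS complex, which acts in DNA replication) beside snoZ3 at 2.34-fold, not3 (a subunit of the CCR4-Not complex, which shortens mRNA tails) beside snR90 at 2.15-fold, and glo1 (glyoxalase) beside snR33 at 2.11-fold. In cpc2, the RACK1 gene of the small ribosomal subunit, a 1.88-fold summit lay in a coding exon 272 bp from snoU24b, which is read on the same strand from inside cpc2. The others, at 1.31-fold to 1.60-fold, were in sir1, pdi4, nxt3, gpi12 and xlf1.

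Peaks with the summit inside a gene were weaker than the other nuclear peaks, though the strongest peaks of the list were among them. Their median fold was 1.43 (interval 1.38 to 1.49; quartiles 1.27 and 1.76), against 2.20 for the other 369 (2.06 to 2.32; quartiles 1.59 and 2.95). A fold over 2 was reached by 55 of them (18.6%, 14.4 to 23.6), against 209 of the others (56.6%, 51.4 to 61.8) and 39.8% of all nuclear peaks. A fold over 5 was reached by 9 and by 23 of the others, 4.82% of the nuclear list. The 3 highest folds of the list were in genes, and these were the only 3 of the 10 highest that were. The median pileup, the fragment coverage at the summit after scaling of the larger library, was 640 in genes (607 to 673) and 957 in the others (914 to 1016), over a median local background of 415 and 405. The peaks in genes were wider, with a median of 609 bp (556 to 661) against 421 bp (380 to 463). The narrowest was 208 bp, 14 were wider than 2000 bp, and they covered 232 of the 591 kb under all nuclear peaks.

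The contrast with the other peaks was smaller away from tRNA and 5S rRNA genes. The 126 peaks near a tRNA or 5S rRNA gene outside centromeres had a median of 2.64-fold and a width of 337.5 bp. Without any peak near such genes, the other nuclear peaks had a median of 1.72-fold (1.62 to 1.81), a pileup of 933 and a width of 590 bp (473 to 694), so that the widths overlapped with those in genes while the folds did not. Gaps between convergent genes came to 1.94-fold (1.60 to 2.22) and 711.5 bp over 50 peaks. Tandem gaps had 1.76-fold and 492 bp over 103, and divergent gaps 1.78-fold and 437 bp over 30. The 53 centromeric peaks had 1.47-fold over a background of 772. The 25 summits at most 50 bp inside a gene had a median of 1.65-fold, and the 20 other nuclear summits at most 50 bp outside one 1.76-fold. The local background differed between chromosomes within the genes, with a median of 373 scaled fragments on I, 386 on II and 566 on III, beside median folds of 1.49, 1.44 and 1.38. None of these differences was tested.

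**Figure D3:**
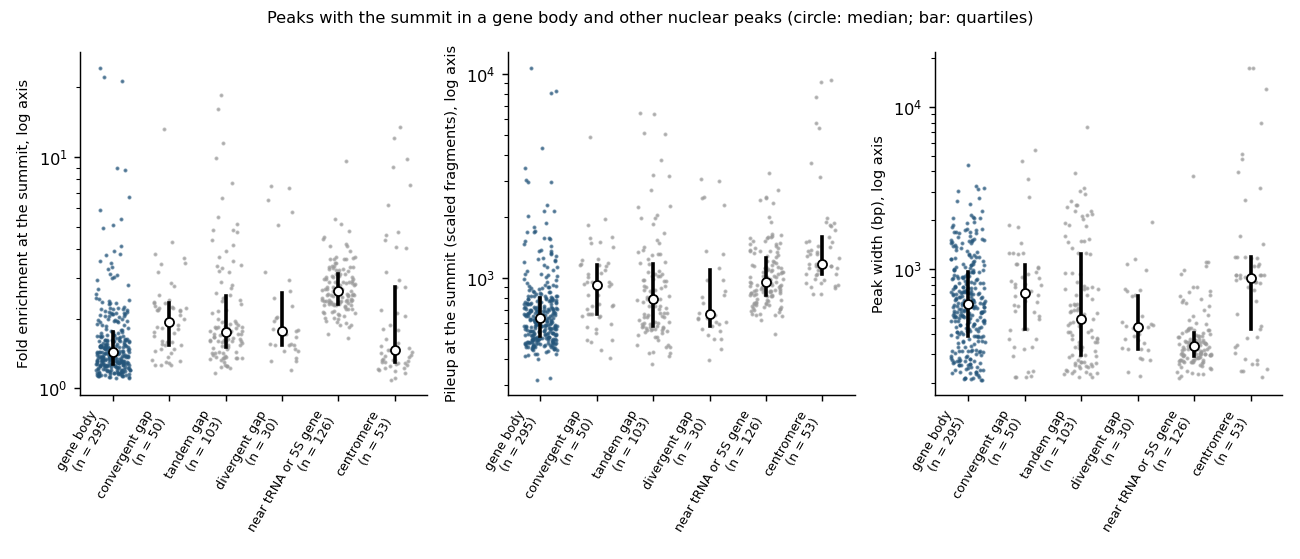
Fold enrichment, pileup in scaled fragments and width in bp (each on a log axis) of the 295 peaks with the summit in a gene body (blue) and of other nuclear peaks by class (grey); circles are medians and bars quartiles. Peaks in genes have the lowest median fold, 1.43, and a median width of 609 bp, between tandem gaps (492 bp) and convergent gaps (711.5 bp). The 3 ribosomal DNA peaks and 4 peaks at chromosome ends are not drawn.

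Fold was higher at summits near a 3′ end, a difference that was not tested. The 227 summits within 500 bp of any 3′ end had a median of 1.49-fold (1.43 to 1.54; quartiles 1.31 and 1.94) and the 68 without one 1.3-fold (1.26 to 1.35; quartiles 1.21 and 1.45). Width was alike, at 609 and 607 bp, and pileup was 636 and 655.5. Summits in 2 genes had 1.44-fold, like those in 1 (1.43), and were 505 against 620 bp wide. Of all 295, 167 had a fold under 1.5. At 14 the summit lay within 5 bp of the edge of its own peak, which was so at 1 of the other 369, so that its place within the peak is uncertain there. At 164 summits the local background was below 429, the mean over the genome, and with the background held at or above it the median fold was 1.3 in genes and 1.91 in the others.

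The 25 members of highest fold, from 2.68 to 24.4, were 675 to 4382 bp wide. The holding gene's 3′ end was within 500 bp of 17 (25.4% of gene bases) and another gene's of 19 (16.0%). Another gene's was the nearer of the 2 in 12, and 3 had no 3′ end within 500 bp (66.6%). The summit was within 250 bp of the stop codon in 16 (21.5%), and an antisense RNA held 5 of the 25 (45.6%). A convergent neighbour lay downstream of the holding gene in 23, against 52.5% of all genes. That count includes genes whose 3′ end was far from the summit, such as rds1 (1842 bp).

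While other nuclear peaks reached up to 18.5-fold, the 3 strongest peaks in genes stood far above the rest of the 295. In the build of the peak list, ASM294v2, that in SPAC1705.02 lay at chrI:1568609-1571230 and reached 24.4-fold, with a pileup of 8023 in the ChIP over a local background of 328 scaled fragments. Its summit lay 126 bp past the stop codon, in the 3′ untranslated region, 20 bp before the end of the gene and 184 bp from the convergent 3′ end of ecm33, a gene of a cell surface protein. The peak in cmc4, a gene of a mitochondrial protein, lay at chrI:4877198-4880217 and reached 22.1-fold, with a pileup of 8230 over a background of 371. The gene is 226 bp long and lay whole under the peak, as did SPAC1705.02, and the summit was 116 bp before the last base of the stop codon. The rds1 peak, at chrI:1666972-1669043 and 21.25-fold, had the highest pileup of the 295, 10745 over a background of 505. Its summit was 85 bp inside the 5′ end of rds1, in the 5′ untranslated region, and 89 bp past the 3′ end of SPAC343.21. This was 1 of 6 summits in a 5′ untranslated region, and the others had 1.36-fold to 3.49-fold.

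Next came genes of microtubules, transcription and secretion, and the uncharacterized SPAC11E3.12 (5.92-fold) described above. The summit in klp5, a kinesin-8 gene, reached 8.93-fold (pileup 3457 over 386, chrII:1707492-1710590), 111 bp past its stop codon and 22 bp before its 3′ end. That in alp16, a gamma-tubulin complex gene, reached 8.76-fold (pileup 4350 over 495, chrIII:430857-433000), 7 bp past the stop codon. The peak in rpc82, a subunit gene of RNA polymerase III, was the widest in any gene at 4382 bp and reached 6.75-fold, with the summit 58 bp before the stop codon and 231 bp from the 3′ end of cts2. In sec5, a gene of the exocyst, which tethers secretory vesicles, the summit reached 5.38-fold, 152 bp before the stop codon and 112 bp from the 3′ end of htb1, the histone H2B gene. At klp5, alp16, rpc82 and sec5 the summit was within 250 bp of the stop codon and another gene ended within 500 bp.

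Further down the ranking, knh4 (4.92-fold, summit 472 bp past the stop codon), ape2 (an aminopeptidase gene, 4.12-fold, 95 bp past) and dus3 (a tRNA-modifying enzyme gene, 3.83-fold, 137 bp past) had the summit in their 3′ untranslated region. The 3.93-fold summit in efr3 lay 34 bp before the stop codon and 108 bp from the 3′ end of tef101, an EF-1 alpha gene. That in lap2 (an aminopeptidase gene, 3.33-fold) was 42 bp before the stop codon, and that in rps2402 (a small ribosomal subunit gene, 3.28-fold) 44 bp past it. Also in this group were dfr1 (dihydrofolate reductase, 3.09-fold), kgd1 (alpha-ketoglutarate dehydrogenase, 3.03-fold, 99 bp from the end of the sulfate transporter gene sul1), mak3 (a sensor kinase, 3.0-fold, 122 bp from the end of adg3), tsr402 (2.80-fold) and ski3 (a subunit of the Ski complex of RNA decay, 2.68-fold). In utp24, a gene of ribosomal RNA processing, the 3.55-fold summit was 42 bp before the gene end but 2019 bp past the stop codon, since the annotated 3′ untranslated region is long. The 5′ end of another gene, bem46, lay 153 bp from the same summit.

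**Figure D4:**
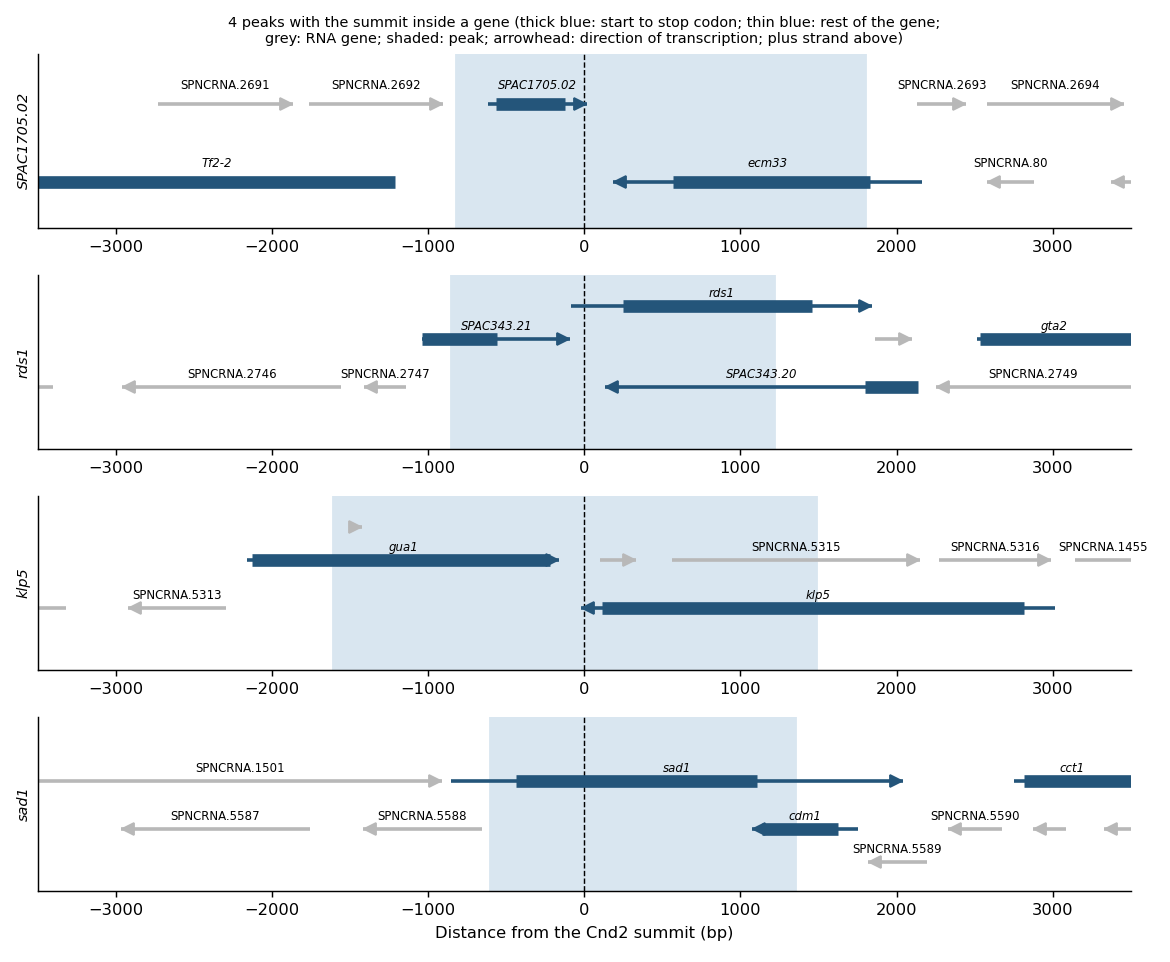
Genes around 4 summits (dashed line at 0 bp), with the plus strand above the minus strand in each map. Thick blue bars run from start to stop codon, thin blue lines are the rest of a protein-coding gene, grey lines are RNA genes and the shaded band is the peak; 3′ ends of genes on both strands meet at the summits in SPAC1705.02, rds1 and klp5, and the summit in sad1 lies in the coding sequence 1073 bp from the nearest 3′ end.

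Far upstream of the stop codon, summits mostly had low folds. More than 500 bp before the stop codon of the gene, with no 3′ end within 500 bp, were 35 summits (11.9%, 8.40 to 16.1), with a median of 1.26-fold (1.22 to 1.34) and a width of 548 bp. Their median pileup was not lower, at 638 beside 614 for the 203 pairs within 250 bp of the stop codon. Of the 35, 32 (10.8% of the 295, 7.54 to 15.0) lay in a coding exon with no gene end of either kind within 500 bp. No share of gene bases was computed for these joint conditions. The other 3 stood in a 5′ untranslated region, in SPAC29B12.14C, a purine transporter gene (3.49-fold, 43 bp from its 5′ end and within the non-coding RNA prl28 on the same strand), pms1, a mismatch repair gene (1.98-fold), and zng1 (1.36-fold). The strongest of the 35 was in sad1, the gene of a spindle pole body protein of the nuclear envelope, at 5.07-fold with a pileup of 2280, 852 bp from the 5′ end and 1108 bp before the stop codon. The summit in mei4, the gene of a meiotic transcription factor, had 2.37-fold and lay inside the antisense RNA SPNCRNA.5202. That in seb1, a gene of poly(A) site selection, had 1.78-fold, and that in rgf3, which encodes an activator of the GTPase Rho1, 1.57-fold. Below 1.40-fold stood, among others, the beta-tubulin gene nda3 (1.35), the ubiquitin gene ubi4 (1.3), the translation elongation factor gene tef3 (1.20) and the glucan synthase genes ags1 (1.22 and 1.17) and bgs1 (1.16). The lowest fold of the 35 was 1.11, in fil1, a GATA transcription factor gene.

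The summits farthest from every gene end all had low folds. The 10 of that kind lay in rgf3 (2317 bp from the nearest end), myp2, ura1, ppk1, kap111, sir1 and bgs1, at 2 places in ags1, and in the overlapping genes fab1 and prp17, with folds of 1.16 to 1.57. The greatest distance was 3734 bp, in ags1. Of the 19 genes with more than 1 summit, crm1, the nuclear export receptor gene, had 3, at 1.27-fold, 1.20-fold and, 41 bp before its 3′ end, 1.94-fold. The folds over all 19 genes ran from 1.12 to 3.55, and their median length was 3127 bp, against 1773 bp over all genes.

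Gene lists were compared by how many of their genes held a summit, beside 6.14% of all genes, and by summits per Mb of gene length, beside 32.2 per Mb (28.8 to 35.8) for all genes. The lists were chosen with earlier results of these data known. An interval above the value of all genes is therefore a description and not a test of a list. Glycolysis and fermentation genes had 149 summits per Mb (48.4 to 348), in 5 of 19 genes. The 5 were tdh1 (glyceraldehyde-3-phosphate dehydrogenase, 1.51-fold), adh1 (alcohol dehydrogenase, 1.45-fold), tpi1 (triosephosphate isomerase, 1.3-fold), hxk2 (hexokinase, 1.18-fold) and gpd3 (1.11-fold). At all 5 the summit stood between 153 bp before and 2 bp past the stop codon. Genes of the G1/S transition read by the MBF factor had 109 per Mb (35.5 to 255) in 4 of 18 genes: rad21, the cohesin kleisin gene (1.89-fold, 602 bp past the stop codon), cig2, a cyclin gene (1.62-fold, 674 bp past), ams2 (1.42-fold and 1.14-fold) and nrm1 (1.14-fold, 875 bp past). The summits in rad21, cig2 and nrm1 also lay inside an overlapping gene, pof3, pmc1 and tad1 respectively. The 3′ ends of pof3 (382 bp) and pmc1 (285 bp) were nearer than those of rad21 (579 bp) and cig2 (1173 bp).

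Ribosomal protein genes had 94.6 summits per Mb (45.4 to 174), and 7.09% of them held one (10 of 141, 3.45 to 12.7), which is close to the share of all genes. They are short, with a median length of 686 bp, and all 10 summits were within 500 bp of the gene's own 3′ end. After rps2402 the highest were in rps3002 at 2.56-fold, 4 bp before the gene end, and in rpl4302 at 2.31-fold, 15 bp past the stop codon. The rest were in rpl102 (1.53-fold), rpl2302, rpl1602, rps3, rps1202, rpl1901 and rpl402, the lowest of them at 1.16-fold. The 3′ end of a ribosomal protein gene was within 500 bp of a summit inside any gene in 31 of 141 cases (22.0%, 15.5 to 29.7), against 6.88% of all genes, and 21 of these 31 did not hold the summit themselves. Fragments from near-identical copies of these genes, and of EF-1 alpha genes, may not be placed uniquely, so the share of each copy is uncertain.

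Cell wall genes had 67.9 summits per Mb (22.0 to 158), in 4 of 22 genes, and none of the 5 summits was within 500 bp of the gene's own 3′ end. They were in psu1 (2.18-fold, 37 bp before the stop codon), chs2, ags1 and bgs1. The 3′ ends of 5 of the 22 genes were within 500 bp of a summit held by a neighbouring gene. Of these, ecm33, gas1 and gas5 held no summit themselves. The others, bgs1 and chs2, also held a summit of their own farther from that end. Mitosis and cell separation genes had 59.9 per Mb, in 7 of 44 genes, led by klp5, by cfh4, a chitin synthase regulator gene (2.46-fold), and by cdc4, the myosin light chain gene of the cytokinetic ring (2.22-fold). The cdc4 summit also lay inside paa1, 100 bp past the paa1 stop codon. Chaperone genes had 60.4 per Mb (12.4 to 176), in 3 of 24: ssa2 (Hsp70, 2.21-fold), hsp90 (1.5-fold) and bip1 (1.27-fold), at peaks 1601 to 1867 bp wide. Translation factor genes had 50.3 per Mb (16.3 to 117), in 5 of 56: tif225 (1.65-fold), tef102 (1.35-fold), tif5, tef3 and tif1.

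The remaining lists had at most 49.7 summits per Mb. The intervals for the cell wall, mitosis and cell separation, chaperone and translation factor lists include the 32.2 per Mb of all genes. So does that of the meiosis list (22.7 to 94.4). Meiosis genes (the mug and meu series) had 49.7 per Mb in 9 of 110 genes, led by mug165 (1.76-fold), mug129 and mug94. Cytoskeleton and motor genes had 44.4 per Mb in 13 of 117, led by klp5, alp16 and arc1 (of the Arp2/3 complex, 2.39-fold), and genes of uncharacterized proteins 40.7 in 18 of 379. The kinase list had 32.0 in 8 of 105, led by ppk32 (2.42-fold), cbs2 (2.06-fold) and ksp1 (1.47-fold). It leaves out the sensor kinase gene mak3, which held a 3.0-fold summit. The 8 include genes of proteins that are not named as kinases: cbs2, a protein kinase activator, and pmp1, a MAP kinase phosphatase. Transporter genes had 26.8 in 12 of 205, with str2 and mfs1 (1.78-fold) next to SPAC29B12.14C. The ribosome biogenesis list had 22.1 in 4 of 96, led by rrp5 (1.93-fold). It leaves out some genes of ribosomal RNA processing that held a summit, such as utp24 (3.55-fold) and tsr402 (2.80-fold), so its value is incomplete. Transcription factor genes had 20.2 in 5 of 120, led by taf9 and mei4. The list of chromatin, cohesin and condensin genes had rad21 alone of 18.

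Genes of the proteasome and ubiquitin had 10.6 summits per Mb (2.90 to 27.2), in 4 of 174 genes (nxt3 at 1.44-fold, SPBC32F12.07C at 1.42-fold, ubi4 and pqr1), and mitochondrial genes 6.97 (0.176 to 38.8), in 1 of 106, mrpl22 at 1.43-fold. No summit lay inside any of 10 histone genes or of 13 Tf2 retrotransposon genes, whose lengths add up to 0.00901 and 0.0522 Mb. The upper end of the interval for 0 summits is 409 per Mb for histone genes and 70.6 per Mb for Tf2, so neither can be told apart from the value for all genes. The lists share members (klp5, klp8, cdc4, rad21, ams2 and chs2 each stand in 2) and no difference between lists was tested. Expression of the genes was not measured in these data.

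**Figure D5:**
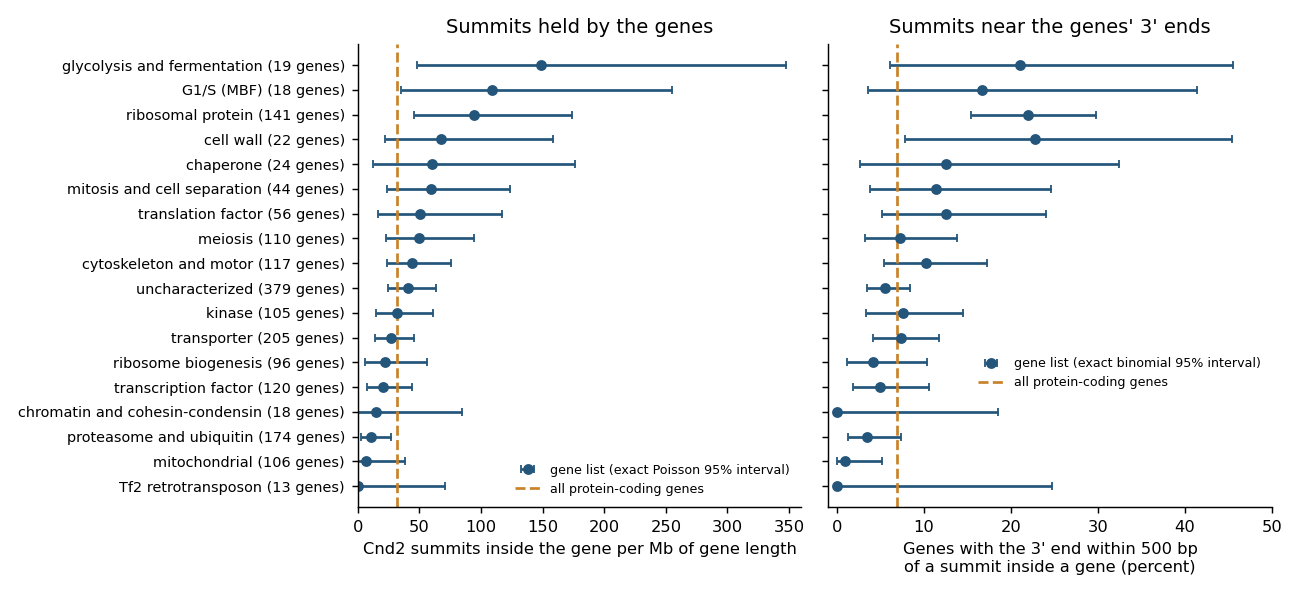
Left, Cnd2 summits inside the genes of each list per Mb of gene length, with exact Poisson 95% intervals, and the value for all protein-coding genes, 32.2 per Mb (dashed). Right, percent of the genes of each list with the 3′ end within 500 bp of a summit inside any gene, with exact binomial intervals, and 6.88% for all genes (dashed); the ribosomal protein list stands at 22.0%. The histone list is not drawn because its genes add up to under 0.03 Mb.

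The peak around these summits often reached past the end of the gene. In 54.8% of the 334 pairs (183, 49.3 to 60.2) the peak extended beyond the 3′ end of the gene alone, in 2.1% (7) beyond the 5′ end alone, in 2 beyond both, and in 42.5% (142, 37.2 to 48.0) it lay inside the gene. The median peak covered 19.5% of the gene that held its summit (quartiles 12.7% and 29.4%).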

How the data were processed

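The build ASM294v2 and the programs MACS2 2.1.0 and BWA 0.7.12 were used per the submitters' processing notes. The deposited peak list, called per the file headers from the ChIP library against the input at a q-value cutoff of 0.05 with at most 1 fragment kept per position, holds the authors' values for each peak. Pileup is a signal, the coverage of fragments at the summit, per the file headers scaled to the smaller library. Fold enrichment is a ratio of that pileup to the local background, as the authors' caller gave it. The list also gives −log10 of the p-value and q-value, used here, as deposited, only for a stricter filter. The ChIP library had 39685815 fragments, 25933013 of them kept, and the input 60564558, with 54272630 kept. Removal of repeated fragments can lower tall peaks, by an amount not measured here. The header gives an effective genome size of 1.87e+09, far above the 12.6 Mb of the chromosomes, so the background has almost no lower limit.

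Genes were those of RefSeq ASM294v3, a later release. Of 171 tRNA genes, 117 had a summit within 100 bp when positions were compared unshifted, and 1 to 9 when shifted by 500 to 5000 bp. No coordinates were converted. Each count of summits was set beside the share of gene bases that meet the same condition. Local background was computed as pileup plus 1, divided by fold, minus 1. Intervals are exact (Clopper-Pearson, Poisson, or order statistics for medians). The counting was tested on simulated data. Genes named are those of the 25 highest folds, the 10 widest, 10 tallest and 10 farthest from gene ends, genes with 2 or more summits, and up to 3 per list. Neighbours that place a summit, the summits near snoRNA genes, those near another gene's 3′ end alone, those far from any 3′ end and further list members were added afterwards. The members and the 19 lists were chosen with earlier results of these data known. Alternatives were stricter peaks, other distances, gene bodies from start to stop codon, longer genes, overlap by 1 bp, centromeres and chromosome ends or tRNA and 5S peaks left out, and a held background. Tools: matplotlib 3.10.9 (figures), pandas 2.3.3 (tables), scipy 1.17.1 (intervals), numpy 2.4.6, all under Python 3.11.15. Reads and coverage tracks were not analysed here.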

Additional observations from a re-analysis of the deposited data

Results flagged for a closer look

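Outside the 3 chromosomes the list holds 4 peaks on a sequence named MTR, which no comparison above used. They have 1.21-fold, 1.47-fold, 2.11-fold and 1.88-fold enrichment over the input and are given because they are signal in data that no comparison above covered. What MTR represents is not given in the sources used here.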

How the results depend on the processing

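Of 74 values under other settings, 36 stayed within the exact interval of the reported value (for the number of genes, within 1.5 times of it) and 38 did not. Of the 67 with a share of bases or a value of the other peaks to set beside them, none changed side; the other 7, the numbers of genes and the overlaps of whole peaks, have no such match. With peaks at or above the median fold, 23.2% of summits (77 of 332) were in genes, 84 genes held a summit, 71.4% of pairs were near the own 3′ end and 8.33% near the 5′ end, 66.2% of summits were near another gene's 3′ end and 10.4% near none. Their medians were 2.21-fold, a pileup of 909 and 1063 bp. With −log10 q of at least 10 the share in genes was 35.4% and the genes numbered 206, with 59.7% near another gene's 3′ end and 15.6% near none. Medians there were 1.62-fold, 716.5 and 741.5 bp. Both settings filter on the strength that these medians measure. The share in genes was 56.1% without peaks near tRNA and 5S genes and 49.2% without centromeres and chromosome ends, which leave out other peaks alone. It was 65.8% when overlap of the peak by 1 bp sufficed.

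With genes cut to start and stop codon, 26.8% of summits were in genes (169 genes, median 1.35-fold), 80.3% of pairs were near the 3′ end of this stretch, 74.2% in the last of its 5 equal segments, and 33.1% of summits near another such end. At 250 bp, 38.9% of pairs were near the own 3′ end, 37.6% of summits near another gene's and 44.7% near none; at 1000 bp these were 76.9%, 57.6% and 11.5%, and 19.2% of pairs were near the 5′ end. In genes of at least 2000 bp, 45.8% of pairs were near the 3′ end, 0.995% near the 5′ end, 49.3% in the last of 5 segments and 53.2% within 250 bp of the stop codon. Overlap of the peak by 1 bp put 51.2% on an antisense RNA, which cannot be read against the 45.6% of gene bases inside one. With the background kept at 429 or above the median was 1.3-fold. The cause of these shifts was not tested where the setting does not fix it. The share within 250 bp of the stop codon was chosen after seeing the data. No paired analysis was possible because each group has 1 library.

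Depth limits these results through 1 library per group: weak peaks (167 of 295 are under 1.5-fold) cannot be checked in a second ChIP, and an untagged control was not analysed here. Gene ends come from an annotation with long untranslated regions for some genes.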
